A study of Durio zibethinus with 9 samples.

Results

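The genes described here were those whose transcripts were high in the young pulp of durian and low at both later stages. A reference gene was a member when its lowest FPKM (mapped fragments corrected for the length of the gene and the size of the library) in the YS libraries was at least 10 and at least 8 times its highest FPKM in any MS or RS library. A gene that a library did not list was taken as 0. Of 39453 reference genes detected in any library, 58 were members, and 6218 genes reached 10 FPKM in the lowest YS library. A further 3 genes passed both thresholds and were left out because the rule named 11 genes to omit: pectinesterase 3, an ethylene-responsive transcription factor (LOC111290490) and phosphoprotein ECPP44-like. The YS library 01 set the size of the group more than any other, since 224 genes would have met the thresholds without it.

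Pulp, the aril that surrounds the seed, came from fruits of Durio zibethinus var. D24 at 3 ages, with 3 libraries of polyA RNA each. Young fruits (YS) were 90 days old, mature fruits (MS) 120 days and ripening fruits (RS) 127 days, the last being mature fruits left at room temperature. The fruits carried no treatment other than this, and whether the pulp of several fruits was pooled in a library is not given in the sources used here. The libraries were described as biological triplicates, but nothing more is said of their fruits or trees, so the p-values cover the spread among these libraries and no more.

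The depth, taken as the mapped bases implied by coverage and FPKM, was between 2350 and 3553 Mb per library. The MS libraries lay close together, with an SD of the log2 ratio between 0.12 and 0.13 for each pair over genes of at least 10 FPKM in both, whereas the YS pairs gave 0.79 to 0.94. The RS library 03 stood apart. It held 15171 genes of at least 1 FPKM, against 19471 and 19614 in the other RS libraries, and its 10 highest genes took 26.3% of all FPKM, against 8.34% and 8.74%. The tissue could hardly be checked by markers, since the names at hand held no seed or dividing-cell marker. The green-tissue list held 1 gene, a photosystem I assembly factor, with 1.03, 1.85 and 1.06 FPKM at YS and at most 0.33 in the other libraries. The vascular and lignifying list held 3 genes that did not move together: laccase-4-like had 3.56 to 5.35 FPKM at YS, 2.02 to 2.93 FPKM at MS and at most 0.12 FPKM at RS. Cellulose synthase A catalytic subunit 8 had 0.10 to 0.83 FPKM at YS, 0.58 to 0.94 FPKM at MS and 4.09, 3.84 and 0.17 FPKM at RS. Laccase-7-like was at most 0.047 FPKM at YS and MS, and 1.73, 0.90 and 0.018 FPKM at RS. Their part in the members' levels was not tested.

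Durian is a climacteric fruit, in which ripening is accompanied by a burst of ethylene. Before that, young fruit tissue divides and enlarges, its cell walls are built and loosened, and it takes up sugar and nitrogen from the rest of the plant. Families known to act in such tissue include secreted peroxidases, small signal peptides of the RALF family, sugar transporters of the SWEET family and enzymes of jasmonate and lipid metabolism. Of the 58 members, 15 had a product name and 43 were known by their LOC number alone. In the gene table of another durian assembly, 48 members were protein coding, 4 were pseudogenes of some kind and 6 had no entry.

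Because YS against MS and YS against RS chose the members, those differences are given as a description and were not tested. The median member stood at 51.3, 60.8 and 63.4 FPKM in the YS libraries 01, 02 and 03. At MS the median was 0.43, 0.52 and 0.58 FPKM, and at RS it was 1.33, 1.20 and 0.46 FPKM. In bulk pulp, fewer cells of a type and less RNA per cell cannot be told apart. Together the members made up 0.98%, 1.78% and 1.16% of all FPKM at YS, 0.024% in each MS library and 0.025% to 0.033% at RS. The depth behind the low values was small, with a median coverage of 1.39 reads per base at MS and 2.83 at RS, against 169 at YS. The wording "high only in young pulp" holds in relative terms, since 5 members reached 10 FPKM or more in an MS or RS library, while 14 stayed under 1 FPKM in all 6.

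**Figure D1:**
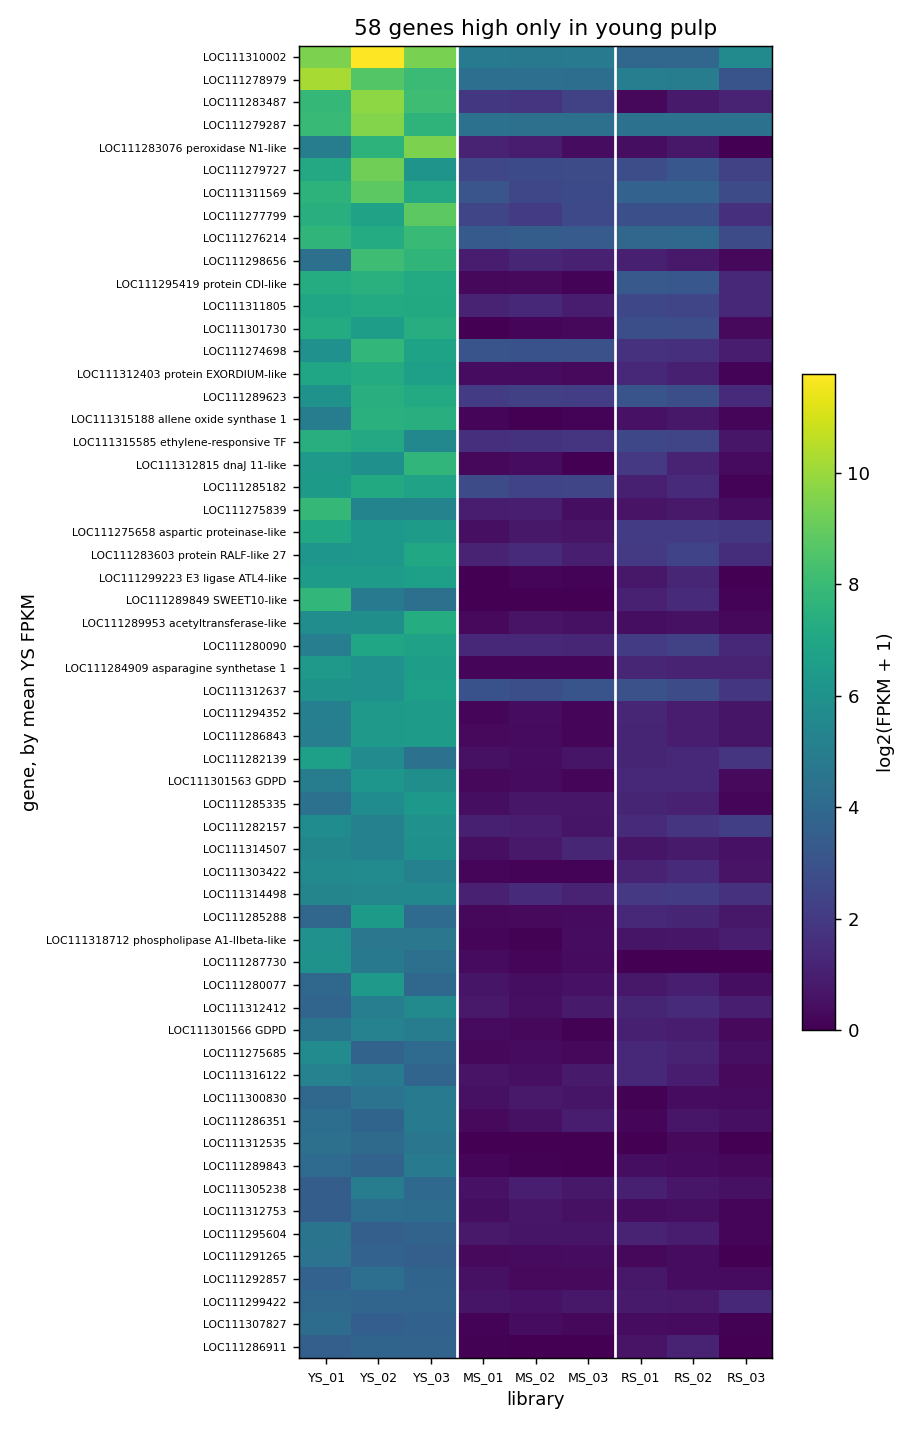
Level of the 58 members (rows, ordered by mean YS FPKM) in each of the 9 libraries (columns), with colour giving log2(FPKM + 1). The YS columns are bright in every row by the choice of members, and the upper rows keep a visible level at MS and RS.

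The gap between YS and the later stages varied among members. The lowest YS library was a median of 15.96 times the highest MS or RS library, more than 16 times in 29 members, more than 50 times in 6 and more than 100 times in 1. The highest MS or RS library was an RS library in 45 of the 58, and the same count over all genes was not made. Just inside the fold threshold lay LOC111282139 (8.02 times) and LOC111312412 (8.04 times), and just outside it lay LOC111275659 (7.69 times) and LOC111312685 (7.65 times). At the FPKM minimum, the lowest YS values were 10.2 for both LOC111312753 and LOC111305238 inside it, and 9.78 for LOC111282604 and 9.37 for LOC111277439 outside it.

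Among members with a role in defence and hormone synthesis, the highest was peroxidase N1-like (LOC111283076). Peroxidases of this class are secreted and oxidise phenolic compounds, for example when wall polymers are cross-linked. It held 29.4, 191.6 and 703.4 FPKM in the YS libraries, 1.18, 0.88 and 0.32 FPKM at MS, and 0.36 and 0.67 FPKM in RS libraries 01 and 02, and it was not listed in RS library 03. Every YS library was above every later one, as the rule requires of each member, but the YS libraries differed 23.9-fold among themselves, the widest spread of any member. Allene oxide synthase 1 (AOS1, LOC111315188), which catalyses a committed step of jasmonate synthesis, had 29.4, 176 and 164.4 FPKM at YS. Its MS values were 0.14, unlisted and 0.090 FPKM, and its RS values were 0.50, 0.70 and 0.17 FPKM. In both genes YS library 01 was the lowest of its stage.

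An ethylene-responsive transcription factor (ERF, LOC111315585) was the only member on the list of transcription regulators. ERFs bind DNA and act downstream of ethylene and stress signals. Its YS levels were 171.1, 135.8 and 43.7 FPKM, followed by 2.12, 2.33 and 2.45 FPKM at MS and 4.85, 4.54 and 0.66 FPKM at RS. The lowest YS library was 9.00 times the highest later library, close to the threshold. Its gene type in the other assembly was a transcribed pseudogene, as was that of dnaJ 11-like (LOC111312815).

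Next come the members that encode a signal peptide, a ubiquitin ligase, a proteinase and a co-chaperone. Protein RALF-like 27 (LOC111283603), of a family of secreted peptides perceived by receptor kinases, had 70.8, 76.9 and 132.3 FPKM at YS, 1.24, 1.75 and 0.98 FPKM at MS and 3.03, 4.11 and 1.95 FPKM at RS. The E3 ubiquitin-protein ligase ATL4-like (LOC111299223), of a family of membrane RING-type ligases that mark proteins for breakdown, was nearly equal in the YS libraries, at 90.2, 88.9 and 100.2 FPKM. It was unlisted, 0.10 and 0.090 FPKM at MS, and 0.70, 1.39 and unlisted at RS. The aspartic proteinase-like gene (LOC111275658), a protein-cleaving enzyme, had 131.1, 75.9 and 89.3 FPKM at YS, then 0.41, 0.67 and 0.56 FPKM at MS and 3.26, 3.09 and 2.70 FPKM at RS. The last gene and RALF-like 27 were higher in all RS than in all MS libraries, and ATL4-like was not. The co-chaperone dnaJ 11-like (LOC111312815), of a family that assists HSP70, had 79.2, 59.8 and 210.9 FPKM at YS. Its MS values were 0.20, 0.33 and unlisted, and its RS values were 2.83, 1.19 and 0.25 FPKM.

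EXORDIUM-like (LOC111312403) belongs to a family known in Arabidopsis for brassinosteroid-responsive cell expansion. It showed 122.3, 153 and 98.6 FPKM at YS, 0.29, 0.31 and 0.22 FPKM at MS and 1.59, 1.07 and 0.095 FPKM at RS. Protein CDI-like (LOC111295419) had 154.9, 175.1 and 147.4 FPKM at YS, with 0.20, 0.22 and 0.069 FPKM at MS and 8.70, 8.08 and 1.45 FPKM at RS. Its YS libraries lay within 1.19-fold of each other, and all RS libraries exceeded all MS libraries.

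Of the genes for sugar and nitrogen, the bidirectional sugar transporter SWEET10-like (LOC111289849) belongs to a family that moves sugars across membranes along their gradient. It was listed in no MS library, at 222.8, 27.1 and 19.3 FPKM in the YS libraries and at 1.12, 1.66 and 0.078 FPKM at RS. Its YS mean of 89.7 ± 115 FPKM (SD, n = 3) rested mostly on YS library 01, the reverse of the peroxidase. Asparagine synthetase 1 (LOC111284909), which makes the nitrogen carrier asparagine from aspartate and glutamine, was more even, at 81.2, 60.2 and 91.8 FPKM at YS. It stood at 0.16, 0.13 and 0.15 FPKM at MS and 1.40, 1.27 and 1.24 FPKM at RS, so that the RS libraries, library 03 included, agreed closely and all lay above MS. That covers the gene's own value only, since a locus assembled anew over it on the same strand reached 71.8 FPKM in RS library 03. The gene overlaps LOC111284910 on the opposite strand by 39 bp, and the library kit does not mark strand.

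Lipid enzymes came next. Phospholipase A1-IIbeta-like (LOC111318712), which releases fatty acids from membrane lipids, had 60.9, 24.7 and 24.2 FPKM at YS, 0.15, 0.048 and 0.32 FPKM at MS and 0.57, 0.66 and 0.91 FPKM at RS. A pair of glycerophosphodiester phosphodiesterase genes, which split deacylated phospholipids into glycerol-3-phosphate and an alcohol, were members side by side. LOC111301563 had 30.3, 72.3 and 57.9 FPKM at YS, 0.20, 0.28 and 0.10 FPKM at MS and 1.55, 1.496 and 0.23 FPKM at RS. Its neighbour LOC111301566 had 22.8, 36.7 and 29.5 FPKM, then 0.28, 0.20 and 0.040 FPKM, and then 1.05, 0.84 and 0.24 FPKM. Both were highest in YS library 02 and both were lowest at RS in library 03. LOC111301566 lies wholly inside LOC111301565 on the same strand (14.8, 24.1 and 17.9 FPKM at YS and 1.32 to 8.40 FPKM in the later libraries), so the division of reads between them is uncertain. The member with the widest gap to the later stages was a salutaridinol 7-O-acetyltransferase-like gene (LOC111289953), named after an acetyltransferase of alkaloid synthesis in opium poppy. It held 53.5, 56.6 and 157.9 FPKM at YS, 0.21, 0.53 and 0.44 FPKM at MS and 0.37, 0.45 and 0.17 FPKM at RS, and its lowest YS library was 100 times the highest other one.

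**Figure D2:**
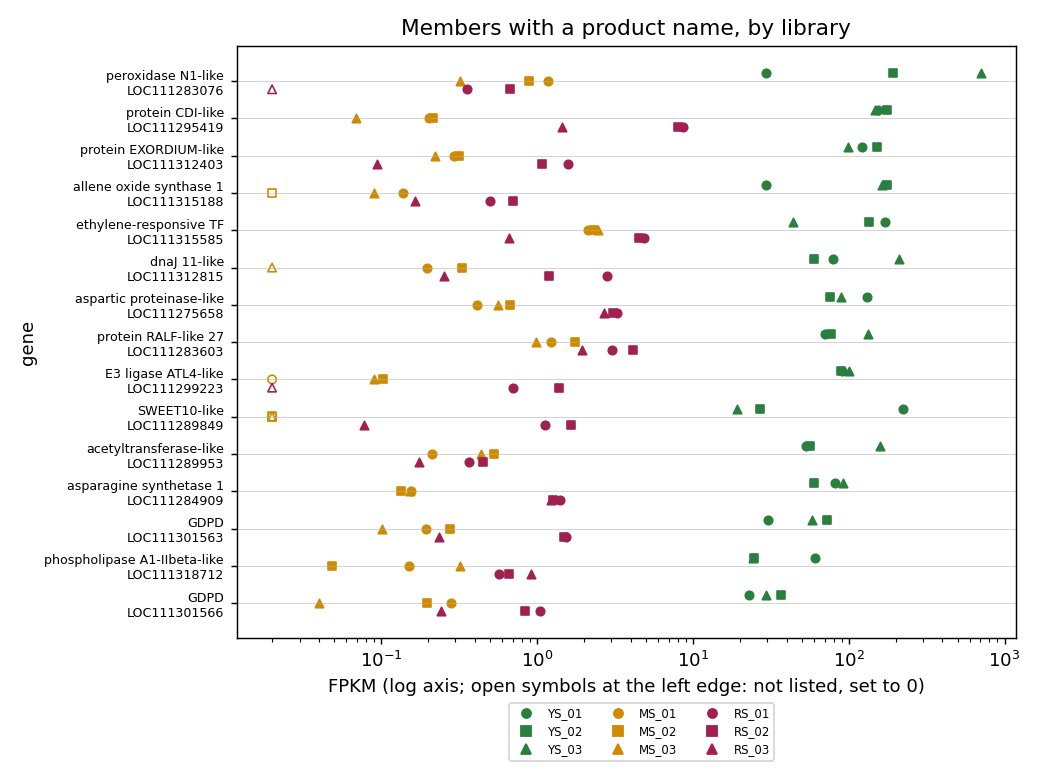
FPKM of the 15 members with a product name in each of the 9 libraries, on a log scale; each symbol is a library, coloured by stage, open symbols at the left edge mark libraries that did not list the gene, and GDPD stands for glycerophosphodiester phosphodiesterase. In all 15 the YS points lie above all others by the choice of members. RS points lie above the MS points in, among others, CDI-like, aspartic proteinase-like and asparagine synthetase 1.

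The 43 members without a product name held 77.6%, 86.4% and 67.2% of the members' summed FPKM in the YS libraries. The 4 of them that ranked among the 5 highest members, the other being peroxidase N1-like, held 39.6%, 53.3% and 22.5%. LOC111310002 led, with 710.1, 3503 and 688.1 FPKM at YS, 26.7, 25.9 and 29.2 FPKM at MS and 13.95, 13.8 and 46.7 FPKM at RS. It was 1 of the members for which RS library 03 was the highest later library. LOC111278979, a pseudogene in the other assembly, followed with 1188, 396.2 and 256 FPKM at YS, 18.4 to 18.9 FPKM at MS and 31.5, 30.1 and 7.46 FPKM at RS. LOC111279287 had 251.5, 769.4 and 198.3 FPKM at YS and was level afterwards, at 19.3 to 19.9 FPKM at MS and 19.9 to 20.7 FPKM at RS. In LOC111283487 the order of the later stages was the opposite of most members, with 228.8, 860.7 and 275.1 FPKM at YS, 2.79, 2.48 and 3.89 FPKM at MS and 0.19, 0.80 and 1.20 FPKM at RS.

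The remaining members of the highest 12 by YS mean showed several patterns among the YS libraries. LOC111279727 (138.7, 591.9 and 66.5 FPKM) and LOC111311569 (194.6, 440.6 and 135.2 FPKM) were highest in YS library 02. LOC111277799 (167.5, 108.2 and 446.9 FPKM) and LOC111276214 (209.2, 151.5 and 245.8 FPKM) were highest in library 03. LOC111298656 was low in library 01 only, at 19.2, 280.8 and 205.3 FPKM, whereas LOC111311805 was even, at 123.6, 144.9 and 142 FPKM. At MS and RS these 6 lay between 0.19 and 14.6 FPKM.

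The YS libraries did not order the members in a common way. The highest YS library was 01 in 14 members (24.1%), 02 in 23 (39.7%) and 03 in 21 (36.2%), where all genes of at least 10 FPKM in the lowest YS library gave 35.6%, 37.99% and 26.4%. The lowest was 01 in 25, 02 in 16 and 03 in 17. The ratio of the highest to the lowest YS library had a median of 2.55 among members, and 1.79 among all genes of at least 10 FPKM in the lowest YS library. It was over 3 in 23 members (39.7%) and in 13.7% of those genes. The widest after the peroxidase were LOC111298656 (14.7-fold) and SWEET10-like (11.5-fold). The narrowest were LOC111314498 (1.10-fold; 39.6, 42.7 and 43.5 FPKM), LOC111299422 (1.10-fold; 14.6, 13.3 and 13.2 FPKM) and ATL4-like (1.13-fold). Without YS library 01, 166 genes would be added, with a median of 6.08 FPKM in that library and 23.2 FPKM in the lower of the other YS libraries. Without library 02, 73 genes would qualify, and without library 03, 82.

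**Figure D3:**
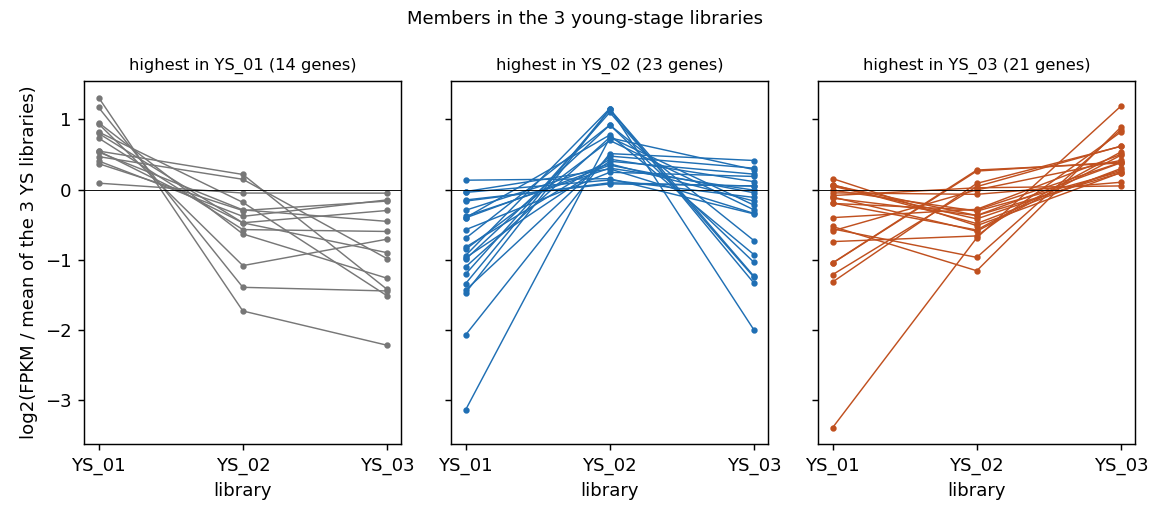
Level of each member in the YS libraries, as log2 of its FPKM over its mean of the 3 YS libraries, in panels by the library in which it was highest (14, 23 and 21 genes); each line is a gene. The lowest line in the third panel is peroxidase N1-like, and the lines spread most widely in libraries 01 and 03.

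The step from MS to RS was not used in choosing the members, apart from the ceiling that the rule set on both stages, and it was tested with limma on log2(FPKM + 1), which understates the change of low genes. Of the 58 members, 1 rose (log2 fold change above 1.5, adjusted p under 0.05) and 2 fell. That is 1.72% rising, with 3.95% of all 21598 genes tested, and 3.45% falling, with 5.26% of all. Among the 6218 genes of at least 10 FPKM in the lowest YS library, 5.76% rose and 5.74% fell. All 58 were tested, but 35 passed the filter on low values (at least 1 FPKM in 3 or more libraries) only through YS. With the filter set on the MS and RS libraries, 23 members were tested. Of these, 1 rose and 2 fell, beside 844 and 1144 of the 19567 genes then tested. The median MS mean of the members was 0.545 FPKM, and a gene at or below that level could not fall by 1.5 on this scale.

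The gene that rose was CDI-like (LOC111295419), from 0.16 ± 0.081 to 6.08 ± 4.02 FPKM (SD, n = 3 each), a log2 fold change of 2.37 ± 0.52 (SE; limma adjusted p = 0.015). Each RS library was above each MS library. Leaving out any 1 MS library, or averaging these libraries to 1 sample, took its call away, with a limma adjusted p of 0.0585 to 0.0639 and of 0.21, although the log2 fold change stayed at 2.31 to 2.40 and at 2.37.

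The genes that fell were LOC111274698 and LOC111285182. LOC111274698 had 61.7, 221.4 and 113.4 FPKM at YS, 7.32, 6.94 and 6.61 FPKM at MS and 2.22, 2.08 and 0.92 FPKM at RS, a log2 fold change of -1.58 ± 0.24 (SE; limma adjusted p = 0.0042). LOC111285182 had 84.7, 142.5 and 108.5 FPKM at YS, 5.43, 4.16 and 4.50 FPKM at MS and 1.05, 1.62 and 0.072 FPKM at RS, a log2 fold change of -1.66 ± 0.34 (SE; limma adjusted p = 0.012). In both, the RS libraries lay below the MS libraries without overlap. Neither kept a change above the fold threshold without RS library 03, at -1.34 and -1.29, or after scaling by size factors, at -1.22 and -1.48. In both settings the limma adjusted p of each stayed under 0.05. LOC111285182 also lost its call with no filter (limma adjusted p = 0.05067) and without MS library 01 or 03 (limma adjusted p = 0.05885 and 0.05364).

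At any fold, 10 members were higher at RS with an adjusted p under 0.05 (17.2%, with 9.37% of all genes) and 3 were lower (5.17%, with 24.9% of all). The low level of most members at MS left little room for a fall, and no background of like level was taken. This limit also holds for the counts of lower RS values that follow. Of the 10, 4 had passed the filter only through YS, among them LOC111294352 and LOC111286843, which may share reads. With the filter set on the MS and RS libraries, 23 members were tested, and 6 were higher (26.1%, with 9.68% of the 19567 genes then tested) and 3 lower (13.04%, with 27.9%). Beside CDI-like, the higher ones with product names were aspartic proteinase-like (log2 fold change 1.38 ± 0.17, SE; limma adjusted p = 0.0019) and asparagine synthetase 1 (1.01 ± 0.15, SE; limma adjusted p = 0.0044). The latter stood at 0.15 ± 0.011 FPKM at MS and 1.31 ± 0.088 FPKM at RS (SD, n = 3 each). RALF-like 27 was at 0.77, with an adjusted p of 0.054 in limma.

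All RS libraries lay above all MS libraries in 20 members (34.5%), with 13.4% of all genes and 17.96% of those of at least 10 FPKM in the lowest YS library. They lay below in 5 members (8.62%), with 47.6% of all genes. Of the 20, 12 had passed the filter only through YS. Among the 23 members that passed through MS and RS, 8 lay above (34.8%, with 12.9% of the genes passing that way) and 3 below (13.04%, with 50.9%). RS library 03 was below the other RS libraries in 47 members (81.0%), in 90.9% of all genes and in 92.2% of those of at least 10 FPKM in the lowest YS library. With RS libraries 01 and 02 alone, 38 members lay above all MS libraries (65.5%, with 31.8% of all and 40.8% of those high at YS) and 6 below (10.3%, with 48.0% of all). LOC111301730 belongs to the 20, and shows how far library 03 departed: it had 150.9, 94.8 and 160.1 FPKM at YS, unlisted, 0.16 and 0.18 FPKM at MS, and 6.01, 5.83 and 0.22 FPKM at RS.

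The median log2 fold change from MS to RS was 0.23 over the members and -0.40 over all genes tested, and 42 members were positive (72.4%, with 29.6% of all). Of these 42, 25 had passed the filter only through YS. Over the 23 members that passed through MS and RS the median was 0.20, with -0.46 over the genes passing that way, and 17 were positive (73.9%, with 26.4%). Size factors moved the median of all genes to -0.02 and that of the members to 0.55, with 47 positive. Without RS library 03 the medians were -0.15 and 0.53. The members with an adjusted p under 0.05 were then 36 higher (with 27.6% of all genes) and 6 lower (with 42.5% of all). With size factors they were 27 higher (with 22.03% of all) and 2 lower (with 23.4% of all). These counts are over all 58 members, 35 of which passed the filter only through YS, and were not split by it.

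**Figure D4:**
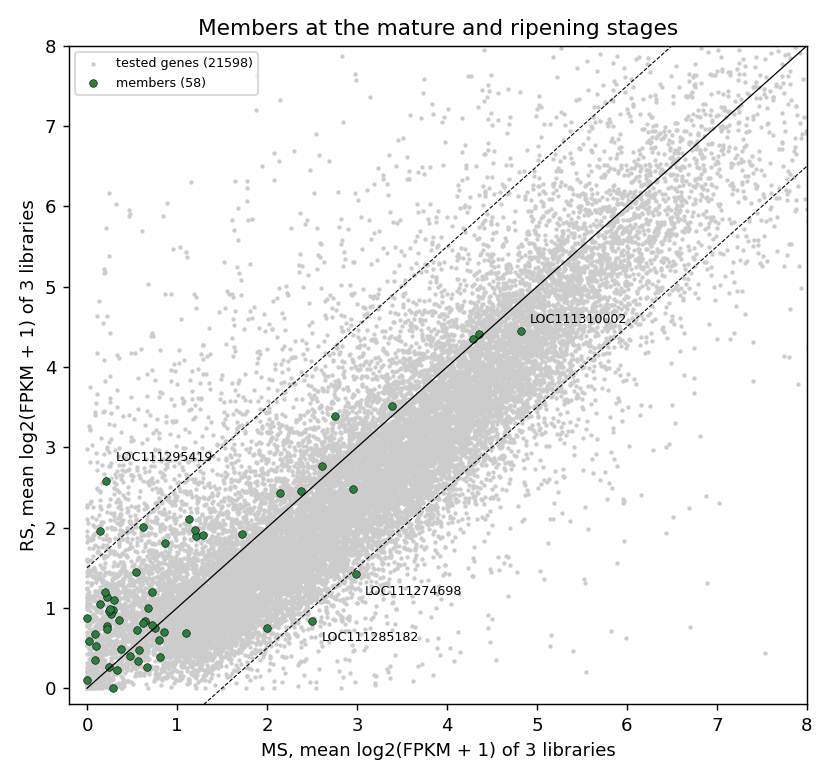
Mean log2(FPKM + 1) of each tested gene at MS (x axis) and RS (y axis), with members in colour over all genes in grey and a diagonal of equal level; both axes end at 8, so higher genes are not drawn. Members sit in the low corner of the plot, 42 of the 58 with a positive log2 fold change.

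Members were spread over 27 scaffolds, and only 3 pairs lay within 100 kb of each other. The glycerophosphodiester phosphodiesterase genes LOC111301566 (scaffold NW_019167871.1, 7242988 to 7244414, minus strand) and LOC111301563 (7246995 to 7254342, minus strand) lay 2580 bp apart. No other gene lies wholly between them, but LOC111301565 (7237452 to 7245687, minus strand), which contains the first, reaches into the gap. AOS1 (scaffold NW_019167826.1, 1894937 to 1896926, plus strand) lay near LOC111314498 (1856576 to 1858881, minus strand), with 8 genes between. EXORDIUM-like (scaffold NW_019167937.1, 30596782 to 30597992, plus strand) lay near LOC111312412 (30665351 to 30667314, plus strand), also with 8 genes between. Of the 115 genes directly next to a member, 2 were members themselves and 29 had at least 10 FPKM in the lowest YS library. Over all 39453 reference genes detected, 6218 reached that level. Members were short, with a median genomic span of 2028 bp (318 to 7348 bp), against 3905 bp for all genes tested and 3534 bp for those of at least 10 FPKM in the lowest YS library.

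LOC111286843 and LOC111294352, a pair noticed after their values were seen, lie on different scaffolds and had nearly the same level in each YS library. They held 31.8, 78.8 and 86.3 FPKM and 32.9, 82.3 and 88.3 FPKM, a ratio between 0.96 and 0.98. Whether they are near-identical copies that share reads was not tested, so their separate levels are uncertain.

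The wider pathways were read through lists of named genes. The names came from genes that the study had picked on these samples, so neither the number of members nor the directions are independent evidence. Members were 0.269% of all genes tested, beside which 3.95% rose and 5.26% fell from MS to RS. The genes omitted by name included genes of these lists, such as pectinesterase 3 on the cell wall list and an ERF, which passed both thresholds, so the counts of members are partly set by the rule. On the hormone list, 2 of 69 tested genes were members (2.90%; AOS1 and the ERF), while 10 rose (14.5%) and 9 fell (13.04%) between MS and RS, at a median log2 fold change of 0.26. Transport held 1 member, SWEET10-like, among 22 tested genes (4.55%), of which 2 rose (9.09%) and 6 fell (27.3%; median -0.16). The stress list held 1 member, the peroxidase, which did not pass the test, while 14 of its 18 tested genes rose (77.8%) and 0 fell (median 5.02). The lipid list held 1 member, phospholipase A1-IIbeta-like, among 8 tested genes (12.5%), of which 1 rose and 1 fell (12.5% each; median 0.27). Transcription regulators held 1 member, the ERF, among 78 tested genes (1.28%), of which 13 rose (16.7%) and 14 fell (17.9%; median 0.18). The cell wall list (66 tested, 10 rose, 7 fell, median 0.45), the signalling list (76 tested, 15 rose, 10 fell, median 0.22), the secondary metabolism list (8 tested, 2 rose, 1 fell, median 0.02) and the growth and division list (5 tested, 0 rose, 0 fell, median 0.09) held no member.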

How the data were processed

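Pulp of durian var. D24 at 90, 120 and 127 days was sequenced as 9 libraries of polyA RNA, 3 per stage. The FPKM deposited by the authors were made with StringTie, and their deposited coverage (signal) column gives read depth averaged over the bases of a gene. The study's text names HISAT2 and the submitters' notes name FastQC, Trimmomatic, Bowtie and TopHat, so the mapper is open. No read counts were used here. The reference build behind the scaffold names is not given in the sources used here. The deposited TPM and the loci assembled anew per library were not used, apart from alternatives that used the loci.

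Reference genes absent from a table were set to 0 (21 cases among the members, in 11 genes). Members were found by the rule in the opening. Stages came from the sample titles. MS and RS were compared with limma 3.58.1 in R 4.3.3 on log2(FPKM + 1) over genes of at least 1 FPKM in 3 or more libraries, two-sided, with Benjamini-Hochberg adjustment over all genes. A call needed a log2 fold change beyond 1.5 and an adjusted p under 0.05. On simulated data of this comparison (21598 genes), changes of 2, 3 and 4 on the log2 scale were recovered in 75%, 84.1% and 97.0% of cases, with 1 false call. The changes were planted only in genes with a mean log2(FPKM + 1) above 3. Members had a median MS mean of 0.545 FPKM and a median RS mean of 0.96 FPKM, so these rates do not cover most of them. Alternatives changed the thresholds, pseudocount, filter, scaling and libraries.

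Product names came from the study's tables. The genes named were those highest at YS, those with names and the widest gap, those called, those on a role list, those at the thresholds, those near another member and those of the widest or narrowest YS spread. The members and lists were chosen with earlier results of these data known.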

Additional observations from a re-analysis of the deposited data

How the results depend on the processing

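The number of members was 156 with a fold of 4, 29 with a fold of 16, 92 with a minimum of 5 FPKM and 36 with a minimum of 20 FPKM. It was 59 to 224 with 1 library left out, the highest without YS library 01, and 41 with size factors. With the higher of each gene and an assembled locus overlapping it, chosen after seeing the data, it was 41, and 43 with loci on the same strand only. From MS to RS, the members that rose numbered 2 with a pseudocount of 0.5, 0 with a pseudocount of 5, 0 with no filter and 3 with size factors. They numbered 2 in a fit of all 9 libraries, 2 with the replicate block, and 2 with size factors and no RS library 03 (the last chosen after seeing the data). Those that fell numbered 3 with a pseudocount of 0.5 (LOC111283487 being added), 0 with a pseudocount of 5, 1 with no filter and 0 with size factors. They numbered 0 with size factors and no RS library 03, and 2 with the replicate block. Leaving out 1 MS or RS library gave 0 to 2 rising and 0 to 2 falling. Over all genes, 853 rose and 1136 fell of 21598 in the main test, against 1389 and 485 with size factors. With size factors and no RS library 03 they were 1427 and 465. A pseudocount of 0.5 gave 1051 and 1614, a pseudocount of 5 gave 437 and 403, and no filter gave 717 and 835 of 39453. The fit of all 9 libraries gave 835 and 1107, and the replicate block 899 and 1170. For the counts of 0, limma gave an unadjusted p under 0.05 in 12 rising and 3 falling members with a pseudocount of 5. It did so in 16 rising members with no filter, and in 3 falling members with size factors (6 with RS library 03 also left out). Without any 1 MS library 0 rose, with 9 to 11 rising at that p, and without RS library 03 0 fell, with 6. No share over all genes was taken at the unadjusted p, and 35 of the 58 members had passed the main filter only through YS. Same-numbered MS and RS libraries did not deviate together (correlations of -0.0038, -0.0038 and -0.0028). The MS libraries lay so close together, and RS library 03 so far apart, that this cannot tell whether the numbers pair the samples. CDI-like, LOC111274698 and LOC111285182 kept their direction in every alternative run. Some other members changed sign, since 42 were positive in the main test and 47 with size factors. The cause of the lost calls was not tested. Depth limits the later stages most, where the median coverage of members was 1.39 (MS) and 2.83 (RS) reads per base.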

Other observations

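Each of the 58 members overlapped at least 1 locus that the authors' assembly had built anew in an MS or RS library, and such a locus can span more than the gene. For LOC111278979 the locus held 2944, 1391 and 1759 FPKM at YS, 229.7, 245.3 and 242.9 FPKM at MS and 178.5, 169.6 and 35.9 FPKM at RS, well above the gene's own values at each stage. In asparagine synthetase 1 (LOC111284909) the locus reached 71.8 FPKM in RS library 03, where the gene itself was at 1.24 FPKM. With the higher of gene and locus, 17 members no longer met the thresholds. For 3 of them, ATL4-like, LOC111311805 and LOC111280077, this came only from a locus not listed on the strand of the gene. These loci held 18.2 FPKM in RS library 02, 141.2 FPKM in RS library 01 and 106.4 FPKM in MS library 01. Whether such a locus was on the opposite strand or had no strand given was not checked. With loci on the same strand the 3 genes met the thresholds. With same-strand loci 15 members did not, LOC111301566 and asparagine synthetase 1 among them. For some members, such as EXORDIUM-like (LOC111312403), gene and locus had the same FPKM in every library. Whether reads were counted under both or divided between gene and locus was not tested.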
